A study of Zea mays with 18 samples.

Results

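Whole embryos and endosperm of the maize inbred B73 were compared at 4 days after pollination (DAP), with 3 libraries of each tissue, 6 of the 18 libraries of the series. The other 12 libraries are the unfertilized central cell (0 DAP) and the endosperm of the 3 days between, and they enter here only as reference levels. Ears grew in a greenhouse and were self-pollinated, tissue was cut from kernel sections by laser capture, and the sections of each replicate were pooled from several kernels of 1 ear, per the labels. RNA was isolated with the PicoPure kit, amplified with the Ovation kit and sequenced on an Illumina HiSeq. All groups share the B73 genotype with no mutation or treatment. A gene was tested if it had at least 1 CPM (read counts scaled to library size) in at least 3 of the 6 libraries, which kept 26948 of 38300 genes.

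Fertilization in flowering plants starts the embryo from the egg cell and the endosperm from the central cell. The endosperm first divides as nuclei in a common cytoplasm and then becomes cellular, and its cells take on separate fates. The basal transfer layer at the base takes up sugar from the mother plant. The embryo-surrounding region lines the cavity of the embryo, the aleurone forms the outer layer, and the starchy endosperm fills later with starch and zein storage proteins. The embryo at this age is a small body on a suspensor, and it is patterned by transcription factors of the LEC1, WOX and homeobox families.

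Depth differed between the libraries. Embryo replicate 1 held 9572961 reads on genes, embryo replicates 2 and 3 held 73813889 and 47136879, and endosperm replicates 1 to 3 held 99184532, 67350539 and 76289746. Embryo replicate 1 was therefore the shallowest of the 6, and 1 of its reads was worth 0.0888 CPM. Genes at 1 CPM or more numbered 26061.7 ± 284.4 in embryo and 25406.7 ± 211.8 in endosperm (SD, n = 3), and an exact two-sided permutation test gave p = 0.1, the smallest that 3 against 3 libraries allow. The first principal component held 66.6% of the variance and split the tissues. The second held 21.2% and set replicate 1 of both tissues apart from the other libraries. RNA of the embryo was quantified from the height of the 18S band and RNA of the 4 DAP endosperm by the standard measure, so this step and the tissue cannot be told apart. Since RNA was amplified, reads are not independent molecules, and floors cover counting error only.

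Many genes differed between the tissues, in similar numbers in each direction. Of 26948 genes, 6277 (23.3%) were called at an adjusted p below 0.05 by limma on log2(CPM + 1), 3306 (12.3%) higher in embryo and 2971 (11.0%) lower. Without embryo replicate 1 there were 7638 calls (28.3%), 4203 higher (15.6%) and 3435 lower (12.7%). Of the 6277 genes, 5859 (21.7% of those tested) were called both ways, 3155 higher (11.7%) and 2704 lower (10.0%), 418 lost the call without that library, and 0 changed direction. Without endosperm replicate 2 the count was 3660 and without endosperm replicate 3 it was 3877. With the replicate number as a block it was 9868 (36.6%), with 18.3% of tested genes called higher and 18.3% lower, including each of the 6277 genes. Genes called higher in embryo had a median log2 difference of 1.39, with 2605 of them at 2-fold or more and 316 at 8-fold or more on that scale. Genes called lower had a median of -1.22, with 2076 and 157 past the same sizes. Among the 1629 tested genes with a name, from which the lists here were drawn, 19.3% were called higher and 13.0% lower. In 11 of 40 lists with at least 5 tested members both shares lay within 10 percentage points of these, a range chosen after seeing the data, so their counts stand near the background: fatty acids and surface lipids, storage proteins, MADS-box, AP2/ERF, bZIP, cytokinin, DNA methylation and small RNA, chromatin remodelling, kinesins and cytoskeleton, aquaporins and ion transport, and lipoxygenase and jasmonate. Over all tested genes the median was -0.02, and the libraries of the tissues did not overlap in 40.5% of genes. Among called genes, 99.8% of those higher and 99.9% of those lower did not overlap, so for a called gene non-overlap adds little. In bulk samples, fewer cells of a type and less RNA per cell cannot be told apart.

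**Figure D1:**
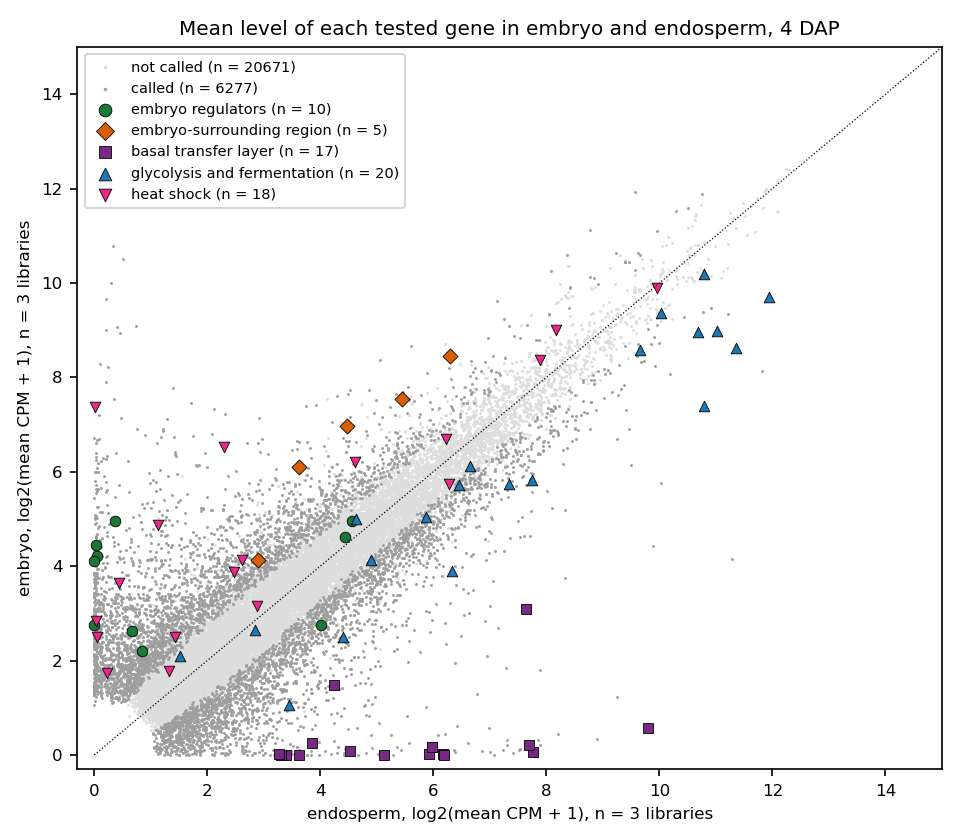
Each point is 1 of the 26948 tested genes, with its mean in endosperm on the x axis and in embryo on the y axis, both as log2(mean CPM + 1) over 3 libraries. Basal transfer layer genes (squares) lie along the x axis, apart from the genes EBE-1 and EBE-2. Embryo regulators lie mostly, and embryo-surrounding genes and several heat shock genes also, above the dotted line of equal level.

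Regulators of embryo patterning marked the embryo libraries. Of 10 genes on this list, all tested, 7 were higher in embryo and 1 was lower, with a median log2 difference of 2.26, against 12.3% and 11.0% called and a median of -0.02 over all tested genes, and 19.3% and 13.0% over those with a name. Counts without embryo replicate 1 were also 7 and 1. The gene lec1, a subunit of the NF-Y factor that promotes embryo identity, stood at 5.95, 26.3 and 20.8 CPM in the embryo libraries and at 0.0263, 0.0541 and 0.0248 CPM in endosperm, a 504-fold difference of means (log2 difference 3.96 ± 0.47 SE, adjusted p = 0.00069). All embryo libraries exceeded all endosperm libraries, and the shallow one was the lowest of the 3. The B3-domain gene vp1, which mediates abscisic acid responses in maturing seed, was at 13.3, 36.1 and 40.2 CPM against 0.158, 0.623 and 0.0745 CPM (log2 difference 4.47).

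The WOX genes of this list are homeobox regulators of early embryo axis formation. In embryo, wox9B was at 18.3, 25.9 and 18.3 CPM, and in endosperm at 0.0176, 0.0541 and 0 CPM. Its relative wox9C had 7.91, 18.9 and 21.8 CPM in embryo and 0 in every endosperm library, at least 1449-fold higher against a floor of 3 reads over the group. For wox9A the embryo values were 9.77, 3.54 and 3.81 CPM with endosperm again at 0, at least 510-fold higher. These genes separated the tissues in every library, and wox9A was highest in the shallow embryo library. SCR, a GRAS factor of radial patterning, was at 4.26, 8.21 and 3.08 CPM against 0.518, 0.893 and 0.347 CPM. The call of wox2A (1.60, 3.34 and 5.89 CPM against 0.421, 1.06 and 0.893 CPM, adjusted p = 0.033) was lost when any library other than embryo replicate 1 was left out. The receptor kinase gene serk1 was lower in embryo, at 3.82, 6.82 and 6.65 CPM against 17.2, 16.1 and 11.8 CPM (adjusted p = 0.013), a call lost without endosperm replicate 2.

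Of 31 homeobox genes at large, 25 were tested. In embryo 10 (40%) were higher and 0 lower, against 19.3% and 13.0% of genes with a name. Counts were 11 and 0 without embryo replicate 1, 10 and 1 with the replicate number as a block, and 11 and 1 by DESeq2. The median log2 difference was 0.23. The 10 higher genes included 4 of the WOX genes above and 4 HD-ZIP IV genes, a class known for expression in the outer cell layer of plant embryos. HDZIV14_OCL14 was at 3.91, 9.56 and 6.98 CPM in embryo and at most 0.0248 CPM in endosperm. Levels of ocl3 were 6.84, 18.3 and 16.6 CPM against 0.571, 0.880 and 1.84 CPM, and HDZIV8_OCL8 differed by 2.48 and HDZIV6_OCL6 by 1.97 on the log2 scale. No library of the tissues overlapped for these 4 genes. The outer-layer genes ocl1 (10.3, 31.4 and 39.1 CPM against 9.64, 25.6 and 31.3 CPM) and ocl4 (32.2, 77.4 and 86.3 CPM against 38.5, 50.8 and 49.0 CPM) did not pass the test with all libraries. Without embryo replicate 1, ocl4 was called higher (log2 difference 0.82, adjusted p = 0.025). The shoot meristem gene kn1 was below the level tested, at 1.87 CPM in embryo replicate 1 and 0 in the other embryo libraries, and ocl5 was at most 0.644 CPM in any of the 6.

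Genes that bear the name of the embryo-surrounding region of the endosperm were higher in the embryo captures than in the endosperm captures. Of 5 tested members, 4 were higher and 0 lower, with a median log2 difference of 2.43 (4 and 0, median 2.75, without embryo replicate 1). Among genes with a name, 19.3% were called higher and 13.0% lower. The gene esr1, which encodes a small secreted protein of the CLE type, was at 255, 397 and 399 CPM in embryo and at 23.6, 124 and 84.5 CPM in endosperm, a 4.53-fold difference (log2 difference 2.43 ± 0.54 SE, adjusted p = 0.013). Its relative esr2 was at 100, 225 and 228 CPM against 9.94, 67.3 and 50.5 CPM. ESR3 was at 51.6, 73.6 and 77.4 CPM against 3.60, 17.9 and 12.5 CPM. In each case the lowest embryo library exceeded the highest endosperm library, and replicate 1 was the lowest library of both tissues.

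The gene esr6, also a small secreted peptide, was at 62.3, 176 and 133 CPM in embryo and at 4.94, 36.6 and 21.7 CPM in endosperm (5.86-fold, adjusted p = 0.017). The androgenic embryo gene ae3 was at 4.00, 18.5 and 26.9 CPM against 0.413, 9.17 and 9.87 CPM and was not called (adjusted p = 0.30), but it was called with the replicate number as a block, which made the count 5 of 5. ESR3 kept its call whichever library was left out. The calls of esr1, esr2 and esr6 were lost without embryo replicate 2 or without embryo replicate 3, which left 1 of 5 genes called. At 3 DAP the endosperm held a mean of 0.781 CPM of esr1, and at 0 to 2 DAP at most 0.258 CPM. How the treatment of reads shared by close copies bears on esr1, esr2 and ESR3 was not tested. Other endosperm-side genes had varied levels in the same embryo libraries. The 17 genes of the basal transfer layer list summed to 4.09, 14.3 and 13.2 CPM, against 2190, 2756 and 945 CPM in endosperm. EBE-2, which was also abundant in the central cell, alone made up 1.16, 11.8 and 9.54 CPM of the embryo sums. In embryo, Yucca3 was at 0.622, 40.4 and 9.40 CPM, fl3 at 5.95, 13.8 and 4.05 CPM and HP1 at 22.1, 77.4 and 110 CPM. The part of adjoining endosperm cells in the embryo captures was not tested.

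The basal transfer layer list differed most completely. All 17 tested members were lower in embryo, with a median log2 difference of -4.98, against 11.0% of all tested genes. The count was also 17 without embryo replicate 1 and in each of the fits that left out another library. Members other than EBE-1 and EBE-2 were below 1 CPM in every embryo library, so they passed the filter through endosperm. Of 806 genes at 1 CPM or more in the 3 endosperm libraries alone, 697 were called lower. The MEG family encodes small cysteine-rich peptides of this layer. Reads were assigned to 2 gene models with the name meg2. The model GRMZM2G088896 was at 1146, 1228 and 304 CPM in endosperm and at 0.711, 0.322 and 0.436 CPM in embryo, an 1823-fold difference (log2 difference -8.99 ± 0.49 SE, adjusted p = 2.5e-05). The model GRMZM2G094054 was at 284, 251 and 81.0 CPM against 0.355, 0.0495 and 0.0794 CPM. Endosperm replicate 3 was the lowest endosperm library for both.

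Defensin-like and other secreted peptides of the transfer layer behaved alike. BETL1 was at 57.6, 124 and 34.0 CPM in endosperm and 0 in every embryo library, at least 3408-fold lower in embryo. The antifungal peptide gene bap2 was at 206, 352 and 87.1 CPM against 0, 0.0495 and 0.0794 CPM. For betl-9 the endosperm values were 35.9, 50.04 and 15.6 CPM with 0 in embryo, at least 1608-fold lower. Endosperm replicate 3 was again lowest, and no gene of these had an embryo library above 0.0794 CPM. The members betl3, betl4, bap-3a and bap-1a differed by -5.76, -5.68, -5.98 and -5.61 on the log2 scale, and betl10, bap-3b, bap1-b and MEG1 by -4.27, -3.20, -3.32 and -3.10.

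Other genes of the transfer layer list showed the same direction. The response regulator gene tcrr-1 was at 10.7, 14.3 and 3.59 CPM in endosperm and 0 in embryo, at least 453-fold lower in embryo. The cell wall invertase gene mn1, which splits incoming sucrose, was at 23.1, 11.6 and 5.81 CPM against 0.533, 0 and 0.0595 CPM. EBE-2 was at 1.16, 11.8 and 9.54 CPM in embryo and at 104, 236 and 254 CPM in endosperm, and EBE-1 had 0.799, 1.86 and 2.74 CPM against 10.6, 21.5 and 21.8 CPM. Both were lowest in replicate 1 of either tissue. EBE-2 was also at 252, 627 and 257 CPM in the central cell, where BETL1 was at most 0.0495 CPM. EBE-1 was at 33.3, 69.4 and 35.85 CPM there, so these 2 genes were not particular to the transfer layer stage.

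**Figure D2:**
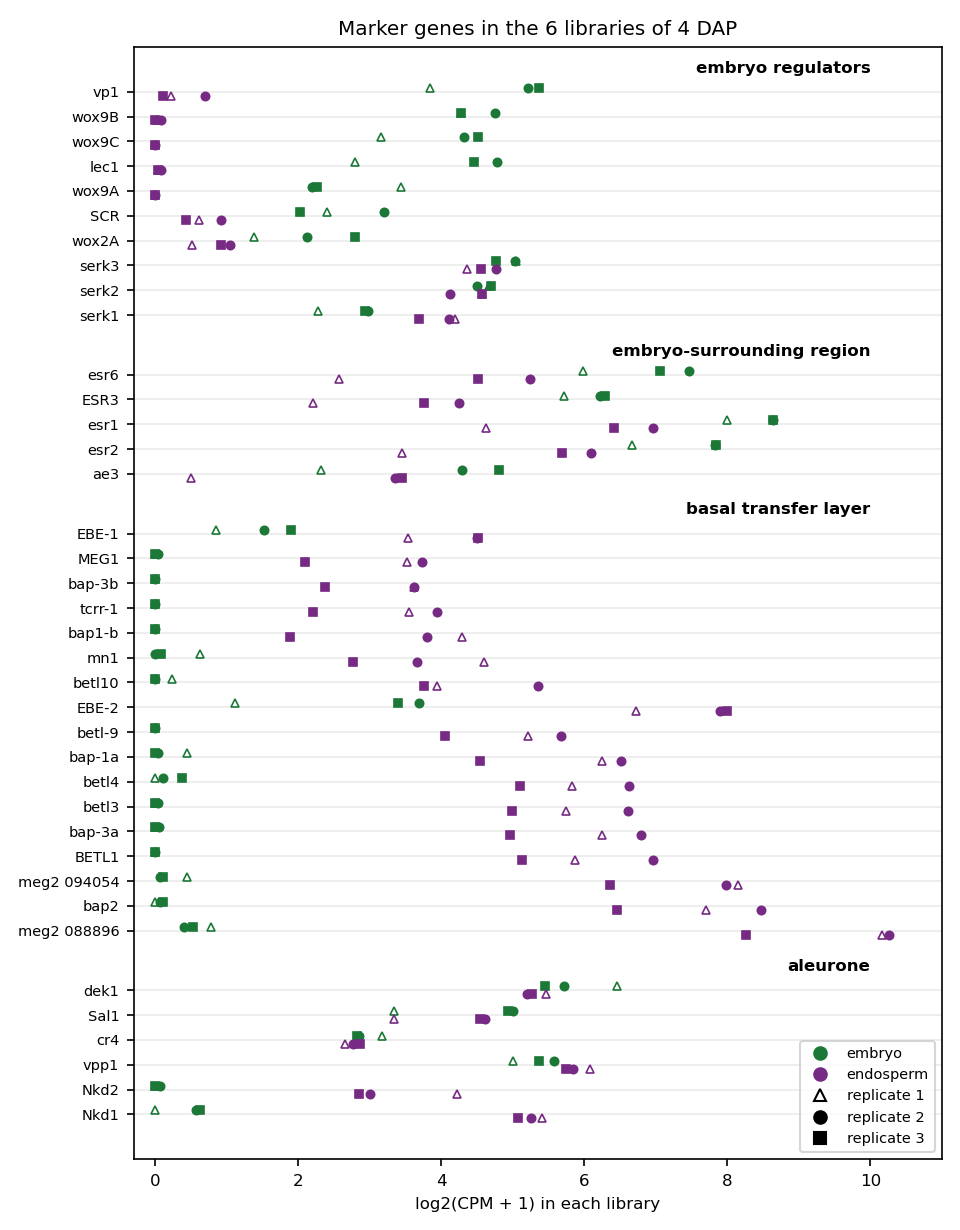
Each row is a gene of 4 marker lists, and the x axis gives log2(CPM + 1) in each of the 6 libraries (embryo green, endosperm purple, open triangles replicate 1). Most transfer layer genes sit near 0 in the 3 embryo libraries while EBE-2 reaches 11.8 CPM, and esr1 at 255 to 399 CPM in embryo lies above its 23.6 to 124 CPM in endosperm.

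Of 6 aleurone genes, 2 were lower in embryo and 0 higher, against 13.0% and 19.3% of genes with a name. Counts were the same without embryo replicate 1, and the median log2 difference was -0.19. The 2 lower genes are the paired zinc finger regulators of aleurone cell fate. Nkd1 was at 41.3, 37.0 and 32.5 CPM in endosperm and at 0, 0.483 and 0.536 CPM in embryo. Its duplicate Nkd2 was at 17.6, 7.01 and 6.22 CPM against 0, 0.0495 and 0 CPM. Neither gene overlapped between the tissues. The pump gene vpp1 (31.1, 46.7 and 40.2 CPM against 66.6, 56.3 and 52.7 CPM) was not called, and cr4, dek1 and Sal1 were not called either. With the replicate number as a block, vpp1 was called lower (adjusted p = 0.048) and dek1 higher (adjusted p = 0.045).

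The Polycomb and imprinted list held genes of both directions, 2 higher and 3 lower in embryo of 11 tested (2 and 3 without embryo replicate 1, median log2 difference 0.18). These were 18.2% and 27.3%, against 19.3% and 13.0% of genes with a name. Polycomb complexes keep genes silent through histone H3 methylation, and fie1 is a subunit gene that is imprinted in maize endosperm and expressed from the maternal allele. In endosperm fie1 was at 73.2, 77.2 and 95.9 CPM, and in embryo at 0.711, 2.77 and 5.16 CPM (log2 difference -4.60 ± 0.42 SE, adjusted p = 0.00021). Its paralog fie2 differed in the other direction, at 90.2, 96.6 and 65.3 CPM in embryo against 37.7, 41.1 and 36.3 CPM. Neither gene overlapped between the tissues. The histone-binding subunit gene nfc104 was also higher, at 97.1, 106 and 111 CPM against 34.5, 37.9 and 49.4 CPM. The methyltransferase gene mez1 was lower in embryo, at 49.2, 55.3 and 62.6 CPM against 111, 81.2 and 106 CPM (adjusted p = 0.025), and lost the call without embryo replicate 2, endosperm replicate 1 or endosperm replicate 3.

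Markers of other tissues varied in level. The photosynthesis gene cab-m1 was 0 in embryo and at most 0.202 CPM in endosperm. The embryo sac genes es1, es2 and es4 were at most 0.0991 CPM in any of the 6 libraries, while their means in the central cell were 86.7, 106 and 154 CPM. Ea1, which encodes the egg apparatus attractant of pollen tubes, was at 0.622, 4.28 and 3.67 CPM in embryo and at most 0.0248 CPM in endosperm, in too few libraries to be tested. The ovule MADS-box gene zag2 was at 1.33, 14.98 and 3.65 CPM against 0.404, 1.29 and 4.36 CPM, so its tissues overlapped, and it was not called.

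The named gene with the largest difference was CER1 (GRMZM2G099097), named for the enzyme that makes wax alkanes of the cuticle. It was at 546, 1003 and 890 CPM in embryo and at 0.123, 0.190 and 0.174 CPM in endosperm (log2 difference 9.41 ± 0.26 SE, adjusted p = 1.4e-06). In the central cell it averaged 1.70 CPM, and in endosperm of 1 to 3 DAP at most 0.221 CPM. A second model of the name (GRMZM2G066578) was below the level tested. Lipid-transfer proteins carry surface lipids, and plt1 was at 59.4, 43.0 and 11.7 CPM in embryo against at most 0.236 CPM in endosperm. Its relative plt2 was at 14.03, 34.8 and 25.6 CPM against 0.404, 1.46 and 1.05 CPM. The wax gene glossy2 was at 9.42, 4.93 and 4.84 CPM against at most 0.255 CPM.

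Fatty acid synthesis genes stood on the other side of the same list. Of 18 tested members of fatty acids and surface lipids, 5 were higher in embryo and 4 lower (6 and 5 without embryo replicate 1; 6 and 7 with the replicate number as a block), and their median log2 difference was -0.17. The 4 lower genes act in making fatty acids. Acc-1, the acetyl-CoA carboxylase gene, was at 179, 144 and 149 CPM in embryo and at 896, 580 and 572 CPM in endosperm. The acyl carrier protein gene ACP was at 18.2, 42.5 and 44.5 CPM against 83.03, 283 and 270.1 CPM. Both separated the tissues in every library. The calls of fab1 and FatB were lost without 1 of several libraries (fab1 without embryo replicate 2, endosperm replicate 2 or endosperm replicate 3, and FatB without those or endosperm replicate 1), and the count of lower genes was 2 without endosperm replicate 2 or endosperm replicate 3. LTP3 (26.4, 10.9 and 2.16 CPM against 0.202, 0.853 and 0.496 CPM) lost its call without embryo replicate 2, endosperm replicate 1 or endosperm replicate 3.

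Cell wall genes were called in both directions. Of 26 tested, 4 were higher (15.4%) and 6 lower (23.1%) in embryo, against 19.3% and 13.0% of genes with a name. Counts were 5 and 6 without embryo replicate 1, and 5 and 11 under the replicate block. The median log2 difference was -0.28. HRGP (GRMZM2G168651), a hydroxyproline-rich structural protein of the wall, was at 112, 190 and 119 CPM in embryo and at 0.0439, 0.284 and 0.819 CPM in endosperm. The endoglucanase gene Cel20 was at 54.1, 121 and 72.9 CPM against 0.0966, 0.352 and 0.484 CPM. The expansin gene expa2 was at 10.8, 28.5 and 23.2 CPM against 1.30, 2.18 and 1.31 CPM. Each of these was far lower in every endosperm library.

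Lower wall genes included 1 expansin and 3 cellulose synthases. The beta-expansin gene expB7 was at 34.98, 112 and 71.0 CPM in endosperm and at 0.355, 0.731 and 0.0198 CPM in embryo (log2 difference -5.63). The glucanase gene exg1 was at 636, 694 and 774 CPM against 76.6, 155 and 127 CPM. CesA-5 was at 218, 247 and 222 CPM against 91.0, 77.2 and 82.7 CPM, a difference of -1.44 on the log2 scale, and CesA-7 differed by -1.07. The call of CesA-2 (-0.74) was lost without any 1 library other than embryo replicate 1. The other 16 tested wall genes were not called.

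Among the other named genes of large difference, several belong to stress and defence families. The glutathione S-transferase gene gst23 was at 27.8, 152 and 128 CPM in embryo and at 0, 0.0541 and 0.124 CPM in endosperm. PR10, a pathogenesis-related protein gene, was at 12.3, 97.1 and 116 CPM against 0, 0 and 0.0745 CPM. Both were lowest in embryo replicate 1 among the embryo libraries. Of 28 tested protease, inhibitor and defence genes, 10 were higher (35.7%) and 4 lower (14.3%). Among genes with a name these shares were 19.3% and 13.0%. Counts were 12 and 4 without embryo replicate 1, and 2 were lower without endosperm replicate 2 or endosperm replicate 3. The median log2 difference was 0.49. The benzoxazinoid glucosyltransferase genes bx8 (0.355, 1.01 and 2.70 CPM against 22.4, 37.0 and 30.9 CPM) and bx9 (0.711, 0.508 and 0.555 CPM against 4.98, 9.003 and 7.11 CPM) were among the lower ones. The processing protease gene vpe1 was higher, at 3.20, 5.78 and 7.86 CPM against at most 0.0869 CPM.

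The remaining named genes with the largest positive differences were of varied kinds. TERT, which carries the name of the telomerase catalytic subunit, was at 159, 183 and 183 CPM in embryo and at 2.29, 1.18 and 3.34 CPM in endosperm. The gene cad1 was at 117, 190 and 170 CPM against 2.05, 3.05 and 4.89 CPM. PMP3, a small membrane protein gene, was at 43.4, 102 and 106 CPM against 0.553, 0.690 and 3.81 CPM. These genes were chosen among those whose libraries do not overlap. TRAF25 was at 45.6, 87.3 and 87.9 CPM against at most 0.112 CPM, and TRAF29 at 11.5, 41.2 and 34.9 CPM against at most 0.0248 CPM.

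Named genes with the largest negative differences, beyond the transfer layer, began with Yucca3, a flavin monooxygenase gene of auxin synthesis. It was at 1024, 3097 and 3364 CPM in endosperm and at 0.622, 40.4 and 9.40 CPM in embryo (log2 difference -7.96 ± 1.02 SE, adjusted p = 0.00099; -6.73 without embryo replicate 1). Replicate 1 was lowest in both tissues. CYPPDKZM2, the cytosolic pyruvate orthophosphate dikinase gene, was at 129, 126 and 71.5 CPM against 0.711, 0.854 and 2.74 CPM. BURP7 was at 94.2, 84.9 and 22.3 CPM against 0.977, 0.0371 and 0 CPM.

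Sucrose and sugar transport genes were called in both directions. Of 15 tested, 2 were higher (13.3%) and 6 lower (40%) in embryo, against 19.3% and 13.0% of genes with a name. Counts were 2 and 5 without embryo replicate 1, and the median log2 difference was -0.40. The 2 higher genes were sucrose synthases, which split sucrose inside the cell. In embryo, sus1 was at 150, 94.0 and 82.0 CPM, and in endosperm at 1.82, 0.420 and 0.372 CPM (log2 difference 5.91 ± 0.35 SE, adjusted p = 3.2e-05). The shrunken1 gene sh1, better known from starch-filling endosperm, was at 150, 85.5 and 123 CPM against 2.27, 0.244 and 1.46 CPM (log2 difference 5.77). Both genes were far higher in every embryo library.

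The lower sugar genes act at several steps. Besides mn1, the sucrose transporter gene sut1 was at 8.92, 4.72 and 2.11 CPM in endosperm and at 0, 0 and 0.0992 CPM in embryo. In the same order fructokinase frk2 was at 146, 174 and 155 CPM against 20.2, 58.0 and 52.0 CPM, and hexokinase hex2 at 10.5, 12.3 and 11.8 CPM against 4.35, 3.64 and 1.75 CPM. SPP2, a sucrose-phosphate phosphatase gene of sucrose synthesis, was at 3.84, 2.97 and 3.97 CPM against 1.24, 0.0248 and 0.595 CPM. MST1 (adjusted p = 0.048) lost its call without embryo replicate 1 (adjusted p = 0.081) and without 4 of the other 5 libraries.

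Starch synthesis showed no common direction. Of 17 tested, 5 were higher (29.4%) and 3 lower (17.65%), against 19.3% and 13.0% of genes with a name. Counts without embryo replicate 1 were 5 and 4, and the median log2 difference was 0.55. The debranching enzyme gene iso3 was at 37.7, 23.1 and 36.9 CPM in embryo and at 3.32, 5.66 and 4.28 CPM in endosperm. GBSSIIa, the granule-bound starch synthase of non-storage tissues, was at 30.4, 17.2 and 33.7 CPM against 4.15, 6.46 and 2.72 CPM. GLG1 was at 10.6, 16.0 and 23.7 CPM against 3.11, 5.02 and 4.03 CPM, and sugary2, a soluble starch synthase gene, was lower, at 0.355, 3.97 and 1.49 CPM against 11.7, 9.88 and 7.52 CPM. These 4 calls held whichever library was left out.

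Other starch calls depended on single libraries. The call of sh2, the large subunit of ADP-glucose pyrophosphorylase (8.26, 10.9 and 5.02 CPM against 3.90, 3.36 and 2.20 CPM), was lost without embryo replicate 1 (adjusted p = 0.051) and without any other library except embryo replicate 3. Starch genes numbered 3 higher without embryo replicate 2, endosperm replicate 2 or endosperm replicate 3, and 1 lower without endosperm replicate 2. Waxy, the granule-bound synthase of storage endosperm, was below the level tested in both tissues, and bt2 was not called (2.40, 2.72 and 9.17 CPM against 0.729, 2.19 and 2.31 CPM), though it was higher with the replicate number as a block (adjusted p = 0.039).

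Of 16 storage protein genes and their regulators, 7 were below the level tested, and the list summed to 212, 176 and 172 CPM in embryo and 371, 252 and 166 CPM in endosperm. The gamma-zein gene gz27 was at most 1.11 CPM. Among the 9 tested, 2 were higher and 2 lower (4 and 1 without embryo replicate 1, 4 and 2 under the replicate block). The median log2 difference was 0.27. The PLATZ-domain gene fl3 was at 204, 128 and 51.7 CPM in endosperm and at 5.95, 13.8 and 4.05 CPM in embryo. Higher in embryo were O10 (34.0, 28.6 and 17.8 CPM against 10.2, 7.83 and 2.99 CPM) and FL1 (2.31, 4.30 and 4.21 CPM against 0.667, 0.569 and 0.509 CPM), both known for roles in zein protein bodies. The model that carries the prolamin-box factor name pbf1 (GRMZM2G146267) was at 105, 69.2 and 87.1 CPM against 97.6, 69.2 and 67.5 CPM and was not called. Whether this model is the prolamin-box factor gene was not tested. Opaque11 (0.0888, 1.92 and 1.53 CPM against 2.43, 5.61 and 6.17 CPM) lost its call without embryo replicate 1, embryo replicate 3, endosperm replicate 2 or endosperm replicate 3, each of which left 1 lower.

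Glycolysis and fermentation genes were lower in embryo. Of 20 tested, 11 were lower (55%) and 0 higher, against 13.0% and 19.3% of genes with a name. Counts were 10 and 0 without embryo replicate 1, and 17 and 0 under the replicate block. The block called 18.3% of all tested genes lower. The median log2 difference was -1.36. The summed level of the list was 4057, 5322 and 5436 CPM in embryo and 13730, 17760 and 17780 CPM in endosperm. Enolase eno1 was at 810, 805 and 873 CPM against 4188, 3494 and 4041 CPM (4.71-fold, adjusted p = 0.00033). The glyceraldehyde-3-phosphate dehydrogenase gene gpc4 was at 380, 404 and 391 CPM against 1725, 3062 and 3096 CPM. For gpc3 and GPC1, of the same family, the differences were -1.99 and -1.72 on the log2 scale.

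Fermentation genes within that list included adh1, the alcohol dehydrogenase induced in low oxygen. It was at 210, 172 and 119 CPM in embryo and at 1996, 1743 and 1572 CPM in endosperm, 10.6-fold lower (log2 difference -3.43 ± 0.26 SE, adjusted p = 8.6e-05). Its relative adh2 was at 0.622, 1.89 and 0.774 CPM against 14.1, 12.1 and 3.61 CPM. Pyruvate decarboxylase pdc3 was at 66.8, 64.1 and 27.5 CPM against 131, 204 and 148 CPM, a call lost without endosperm replicate 2. The embryo libraries were below every endosperm library for each. Upper steps included ald1, an aldolase (46.2, 64.1 and 56.7 CPM against 221, 216 and 201 CPM), and the 2 phosphoglucose isomerase models named phi1. Of these, GRMZM2G065083 differed by -2.44 and GRMZM2G477257 by -1.83 on the log2 scale. The call of adh1C was lost without embryo replicate 1 (adjusted p = 0.075) and without any other library except embryo replicate 2.

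Auxin is made by YUCCA enzymes, moved by PIN and ABCB carriers, and acts by removing AUX/IAA repressors from ARF transcription factors. Of 12 tested genes of synthesis and transport, 3 were higher (25%) and 4 lower (33.3%), against 19.3% and 13.0% of genes with a name. Counts were 4 and 4 without embryo replicate 1, and the median log2 difference was -0.22. All 3 called YUCCA genes were lower in embryo: Yucca3, Yucca6 (0.977, 1.46 and 1.01 CPM against 3.43, 14.8 and 18.6 CPM, a call lost without endosperm replicate 2) and yuc (0.178, 0.0124 and 0 CPM against 11.8, 14.4 and 4.49 CPM). The fourth lower gene was abp1, an auxin-binding protein gene (log2 difference -1.77). The nitrilase gene NIT2, also named for auxin synthesis, was higher, at 9.42, 16.4 and 16.4 CPM against 3.63, 3.09 and 4.52 CPM. The other higher genes encode carriers. The efflux carrier gene PIN1a was at 5.33, 10.9 and 8.91 CPM in embryo and 0 in every endosperm library, at least 751-fold higher. The ABCB carrier gene br2 was at 9.77, 3.11 and 2.82 CPM against 0.0615, 0.149 and 0.0248 CPM.

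Of 26 tested auxin response genes, 15 were higher (57.7%) and 4 lower (15.4%), against 19.3% and 13.0% of genes with a name (15 and 4 without embryo replicate 1), with a median log2 difference of 1.13. Leaving out 1 library gave 12 to 15 higher. Response factor ARF23 was at 51.8, 31.6 and 37.4 CPM in embryo and at 2.27, 0.325 and 0.596 CPM in endosperm. ARF4 was at 10.3, 13.2 and 11.4 CPM against 0.105, 0 and 0 CPM. Levels of ARF2 were 18.4, 24.6 and 21.4 CPM against 0.948, 2.14 and 1.18 CPM. These 3 factors were higher in every embryo library, and ARF1, ARF17, ARF18 and ARF13 differed by 1.93, 1.89, 1.33 and 1.13 on the log2 scale.

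The AUX/IAA repressor and conjugation genes of the list were mostly on the embryo side. AUX9 (GRMZM2G048131) was at 2.58, 13.1 and 12.04 CPM in embryo and 0 in endosperm, at least 827-fold higher. AUX10 was at 5.33, 30.9 and 13.3 CPM against 0.773, 1.56 and 0.496 CPM. GH3, which conjugates auxin to amino acids, was at 4.44, 17.3 and 17.0 CPM against 0.0527, 0.325 and 0.174 CPM. Replicate 1 was the lowest embryo library for each. Lower in embryo were ARF10 (12.8, 23.4 and 24.1 CPM against 78.9, 85.8 and 81.6 CPM), ARF21, AUX17 and ARF30. The call of ARF30 was lost without any 1 library other than embryo replicate 1, and DESeq2 did not call AUX17 (adjusted p = 0.074).

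Cytokinin genes had no common direction, with 4 higher and 4 lower of 22 tested (5 and 4 without embryo replicate 1; 2 lower without endosperm replicate 2), and a median log2 difference of -0.08. Cytokinin signals pass from histidine kinases through phosphotransfer proteins to response regulators. The response regulator gene abph1 was at 12.9, 11.1 and 32.1 CPM in embryo and 0 in endosperm, at least 1673-fold higher. The cytokinin oxidase gene CKX10 was at 8.17, 15.5 and 12.9 CPM against 0, 0.0406 and 0 CPM, and the kinase gene HK1a2 at 12.3, 12.2 and 8.15 CPM against 0.448, 0.948 and 0.211 CPM. Phosphotransfer genes were on the other side. HP1 was at 22.1, 77.4 and 110 CPM in embryo against 218, 730 and 1216 CPM in endosperm (log2 difference -3.31), and HP3 at 6.75, 29.7 and 32.8 CPM against 69.2, 205 and 217 CPM, a call lost without endosperm replicate 2.

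Of 10 tested gibberellin and brassinosteroid genes, 6 were higher and 1 lower in embryo, against 19.3% and 13.0% of genes with a name. Counts were also 6 and 1 without embryo replicate 1, and the median log2 difference was 1.503. DWF1, of brassinosteroid synthesis, was at 175, 292 and 285 CPM against 60.8, 88.3 and 87.1 CPM. The synthesis gene Dwf4 was at 4.71, 6.45 and 3.11 CPM against 0.518, 1.62 and 0.608 CPM. CPPS2, a diterpene synthase gene, was at 2.93, 7.84 and 5.81 CPM against 0.114, 0.135 and 0.285 CPM. The brassinosteroid oxidase name CYP734A7 covered 2 models with equal embryo values (1.33, 4.93 and 3.41 CPM), so the split of their reads is uncertain. Both are among the 6 higher genes, so that count and the median may hold the same signal more than once. The lower gene, d3, acts in gibberellin synthesis, and its call was lost without embryo replicate 2, embryo replicate 3, endosperm replicate 2 or endosperm replicate 3.

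Abscisic acid and ethylene genes numbered 20 tested, with 7 higher (35%) and 3 lower (15%), against 19.3% and 13.0% of genes with a name. Counts were also 7 and 3 without embryo replicate 1, and the median log2 difference was 0.53. SnRK2 kinases carry the abscisic acid signal, and they were called in both directions. SnRK2.1 was at 20.6, 13.9 and 15.8 CPM in embryo and 0 in endosperm, at least 1502-fold higher. SnRK2.2 was at 19.6, 18.9 and 38.4 CPM against 0.931, 1.07 and 1.89 CPM, and SnRK2.8 at 48.6, 36.3 and 47.6 CPM against 5.65, 5.998 and 3.02 CPM. In contrast SnRK2.7 was at 0.267, 1.57 and 1.13 CPM in embryo and at 14.7, 25.1 and 21.7 CPM in endosperm. Tissues did not overlap for these 4 kinases. The aldehyde oxidase name AO2 covered 2 models, of which GRMZM5G899851 was at 5.33, 4.84 and 2.96 CPM against 0.386, 0.122 and 0.112 CPM.

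**Figure D3:**
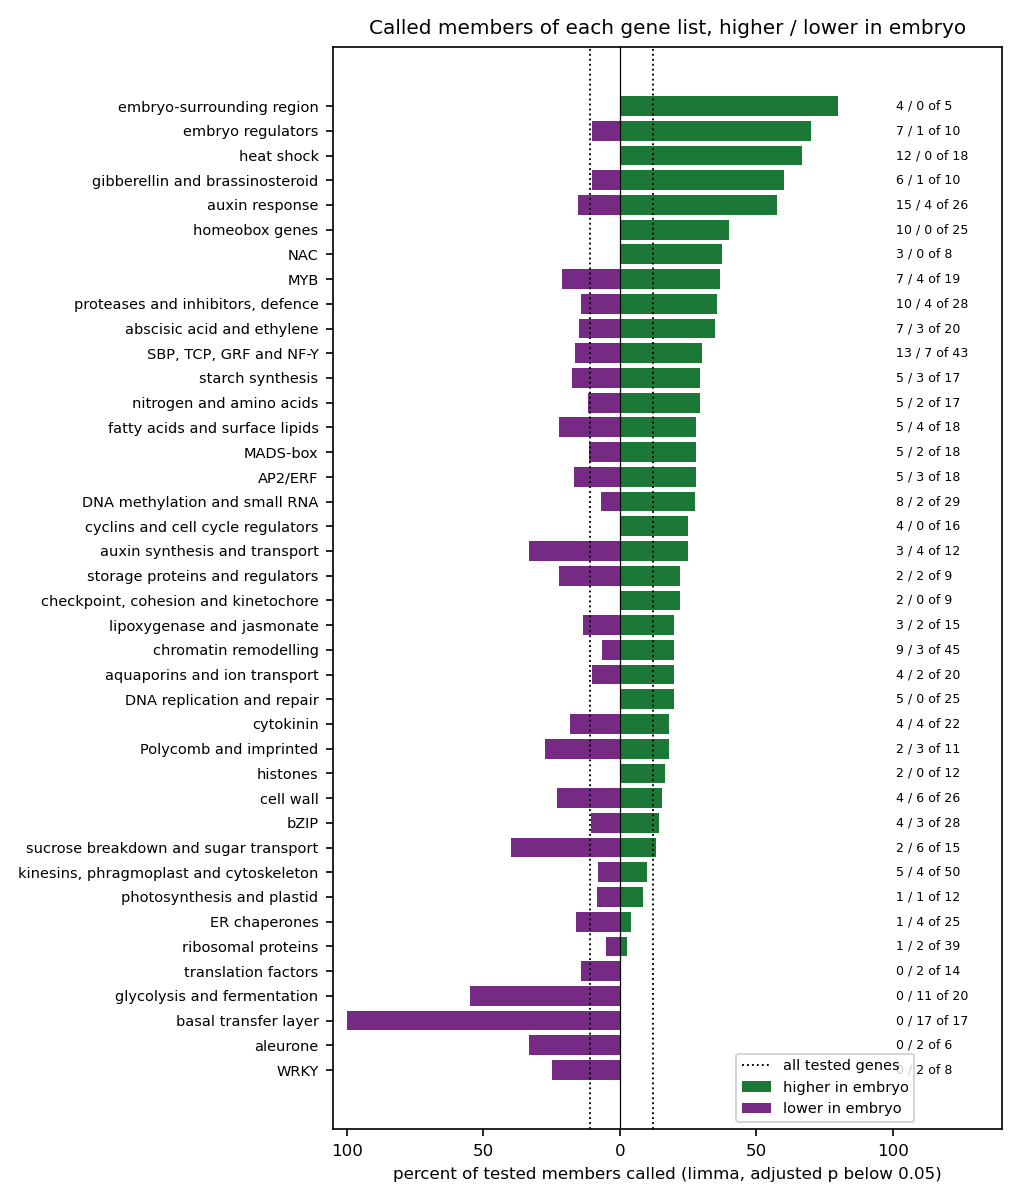
For each gene list with at least 5 tested members, bars give the percent of tested members called higher (green, right) or lower (purple, left) in embryo, with counts at the right and dotted lines at 12.3% and 11.0%, the shares over all tested genes. The transfer layer bar reaches 17 of 17 to the left, and the glycolysis list has 11 of 20 to the left and 0 to the right.

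Cell cycle regulators were called higher for 4 of 16 tested (25%) and lower for 0, against 19.3% and 13.0% of genes with a name. Counts were 4 and 1 without embryo replicate 1, and the median log2 difference was -0.15. The gene cyclin11 was at 14.3, 18.7 and 19.5 CPM in embryo and at 0.0176, 0.163 and 0.124 CPM in endosperm. The G1 cyclin gene cycD4 was at 6.22, 20.4 and 29.6 CPM against 1.04, 0.0812 and 0.745 CPM. The kinase gene wee1, which delays entry to mitosis, was at 17.9, 19.6 and 21.2 CPM against 6.47, 6.27 and 9.38 CPM. These and dnp2, a DP partner of E2F factors (log2 difference 1.38), did not overlap and kept their calls whichever library was left out. Checkpoint and cohesion genes had 2 higher and 0 lower of 9 (2 and 0 without embryo replicate 1). They were SMC6, of DNA repair (287, 240 and 231 CPM against 124, 100 and 96.7 CPM), and ZYP1, named for a meiotic synapsis protein (36.9, 41.5 and 46.7 CPM against 13.9, 11.4 and 13.8 CPM).

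Replication and histone genes depended on the shallow library and on the block. Of 25 tested replication and repair genes, 5 were higher and 0 lower with all libraries, 10 and 0 without embryo replicate 1, 3 and 0 without endosperm replicate 2, and 12 and 1 with the replicate block. With all libraries 20% of these genes were higher, near the 19.3% of genes with a name. The median log2 difference was 0.38. Flap endonuclease FEN-1 was at 82.2, 90.0 and 90.9 CPM against 32.6, 40.9 and 34.0 CPM, and MSH1 at 17.8, 23.6 and 13.4 CPM against 5.14, 6.03 and 4.73 CPM. Neither overlapped. Of 12 histone genes, 2 were higher, but 6 without embryo replicate 1 and 10 with the replicate block, and 1 without embryo replicate 2, embryo replicate 3, endosperm replicate 1 or endosperm replicate 2. With all libraries 16.7% of the histone genes were higher, and their median log2 difference was 0.75. The linker histone gene his1a was at 1204, 1723 and 1823 CPM against 478, 689 and 632 CPM (2.64-fold, adjusted p = 0.0064). Summed histone levels were 2049, 3935 and 3904 CPM in embryo and 980, 1691 and 1800 CPM in endosperm, lowest in replicate 1 of both tissues.

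Of 50 tested kinesin, phragmoplast and cytoskeleton genes, 5 were higher and 4 lower (7 and 4 without embryo replicate 1, 10 and 12 with the replicate block; 2 and 2 without endosperm replicate 2, and 3 higher without embryo replicate 3 or endosperm replicate 1), and the median log2 difference was -0.13. Without endosperm replicate 3 there were 2 higher and 3 lower. The profilin gene prf1, of actin assembly, was at 5.33, 14.9 and 8.35 CPM in embryo and at 0.0176, 0 and 0 CPM in endosperm. The alpha-tubulin gene tua6 was at 45.2, 60.0 and 62.6 CPM against 133, 138 and 135 CPM. The calls of tua5, ACT-1 and actin (GRMZM2G006765) each depended on 1 or 2 libraries.

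Chromatin genes had mostly small differences. Of 45 tested remodelling genes, 9 were higher and 3 lower (9 and 2 without embryo replicate 1, 15 and 5 under the replicate block). The median log2 difference was 0.29. Higher genes numbered 3 without endosperm replicate 2 and 5 without embryo replicate 3, endosperm replicate 1 or endosperm replicate 3, and 1 was lower without endosperm replicate 2 or endosperm replicate 3. The remodeller gene chr101a was at 314, 276 and 289 CPM in embryo and at 106, 106 and 104 CPM in endosperm. HMG-box genes went both ways. The gene nfd102 was at 41.4, 85.7 and 105 CPM against 19.9, 26.5 and 25.7 CPM, while nfd104 was at 8.35, 26.5 and 37.4 CPM against 114, 224 and 240 CPM (log2 difference -3.10).

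Of 29 tested DNA methylation and small RNA genes, 8 were higher and 2 lower (9 and 3 without embryo replicate 1), with a median log2 difference of 0.13. Counts of higher genes without 1 other library were 2 to 4, lowest without endosperm replicate 3, and none was lower without embryo replicate 2 or any 1 endosperm library. The 2 genes called whichever library was left out encode methyl-CpG-binding domain proteins. One was mbd105, at 27.1, 37.1 and 42.5 CPM in embryo against 3.14, 3.91 and 4.47 CPM in endosperm. The other was mbd106, at 35.7, 59.8 and 49.2 CPM against 17.5, 18.3 and 22.9 CPM.

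Transcription factor families held embryo-side and endosperm-side members. In the NF-Y family, whose trimers bind CCAAT boxes, NF-YA13 was at 30.6, 43.0 and 53.1 CPM in embryo and 0 in every endosperm library, at least 3780-fold higher. NF-YA14 was at 7.55, 10.8 and 6.37 CPM against 0.158, 0.217 and 0.174 CPM, and the growth regulating factor gene atGRF2 (GRMZM2G018414) at 17.1, 17.2 and 27.8 CPM against 1.97, 2.18 and 1.35 CPM. In contrast TCP5 was at 0.178, 0.446 and 0.992 CPM against 4.24, 7.85 and 5.46 CPM and the coactivator gene GIF1 at 0.355, 2.35 and 1.03 CPM against 4.91, 9.72 and 10.9 CPM. Of 43 tested SBP, TCP, GRF and NF-Y genes, 13 were higher (30.2%) and 7 lower (16.3%). Among genes with a name these shares were 19.3% and 13.0%. Counts were 14 and 5 without embryo replicate 1, and 4 were lower without embryo replicate 3, endosperm replicate 1 or endosperm replicate 2. The median log2 difference was 0.21. The SBP-box gene sbp25 was at 13.3, 20.2 and 15.1 CPM against 0.957, 0.284 and 0.546 CPM, a difference of 3.43 on the log2 scale.

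MADS-box genes were called higher for 5 and lower for 2 of 18 tested (6 and 1 without embryo replicate 1), with a median log2 difference of 0.30. The gene m15 was at 4.44, 10.3 and 14.4 CPM in embryo and 0 in endosperm, at least 869-fold higher. Flower gene zap1 was at 3.38, 3.40 and 5.89 CPM against at most 0.0372 CPM. Lower was ZAGL1, at 7.64, 25.0 and 27.4 CPM against 84.1, 70.1 and 59.0 CPM. The tissues did not overlap for these. The other lower call, m20, was lost without embryo replicate 1 (adjusted p = 0.061) and without any other library except embryo replicate 2, which left 1 lower.

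Of 28 tested bZIP genes, 4 were higher (14.3%) and 3 lower (10.7%), near the 12.3% and 11.0% of all tested genes (6 and 3 without embryo replicate 1), with a median log2 difference of 0.09. The TGA-type genes obf3.2 (23.9, 23.6 and 22.7 CPM against 0.439, 0.0541 and 0.273 CPM) and OBF3.1 (28.8, 34.8 and 25.1 CPM against 1.61, 0.339 and 0.347 CPM) were the furthest apart. GBF1 was lower, at 0.178, 1.09 and 4.52 CPM against 10.0, 16.5 and 18.5 CPM. MYB genes had 7 higher and 4 lower of 19 (8 and 4 without embryo replicate 1; 2 or 3 higher without any other library, and 2 lower without embryo replicate 3 or any 1 endosperm library), median 0.36, and Myb36 was at 5.15, 12.3 and 2.68 CPM against 0, 0.0271 and 0 CPM. NAC genes had 3 higher and 0 lower of 8 (3 and 1 without embryo replicate 1), led by NAC5 at 2.22, 7.95 and 13.7 CPM against at most 0.541 CPM. AP2/ERF genes had 5 higher and 3 lower of 18 (5 and 3 without embryo replicate 1; 2 higher without endosperm replicate 1 and 3 without endosperm replicate 2 or endosperm replicate 3), with EREB14 at 17.2, 16.8 and 21.5 CPM against 62.6, 68.7 and 58.9 CPM. WRKY genes had 0 higher and 2 lower of 8 (0 and 2 without embryo replicate 1), WRKY109 (GRMZM5G880069) and WRKY1 (GRMZM2G018487, 3.73, 0.792 and 2.92 CPM against 12.97, 15.9 and 12.5 CPM).

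Heat shock genes were called higher in embryo for 12 of 18 tested (66.7%) and lower for 0. Among genes with a name these shares were 19.3% and 13.0%. Counts were also 12 and 0 without embryo replicate 1, and 9 to 12 were higher without 1 library. The median log2 difference was 1.40. The gene hscf1 was at 99.9, 204 and 193 CPM in embryo, and in endosperm it was at 0, 0.0271 and 0 CPM (log2 difference 7.30 ± 0.30 SE, adjusted p = 9.3e-06). The small heat shock protein gene hsp22 was at 103, 131 and 38.8 CPM against 3.21, 3.99 and 4.57 CPM. The chaperone gene hsp101, of protein disaggregation, was at 4.44, 5.97 and 3.43 CPM against at most 0.0677 CPM. These genes separated the tissues in every library.

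Heat stress factors and large chaperones lay on the same side. The factor Hsf05 covered 2 models: GRMZM2G133023 was at 21.3, 35.6 and 27.4 CPM against 0.843, 1.76 and 0.931 CPM, and GRMZM2G132971 at 19.0, 14.99 and 15.7 CPM against 4.83, 4.55 and 5.91 CPM. HSP90-1 was at 76.3, 84.0 and 58.3 CPM against 29.7, 16.1 and 24.9 CPM. The call of HSP90-2 (396, 600 and 545 CPM against 257, 303 and 299 CPM, adjusted p = 0.034) was lost without any 1 library other than embryo replicate 1. Whether the difference in RNA handling bears on heat shock genes was not tested.

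Ribosomal protein genes were called for 2.56% higher and 5.13% lower, against 19.3% and 13.0% of genes with a name. Shares were 0% and 14.3% for translation factors and 4% and 16% for endoplasmic reticulum chaperones. Of 39 tested ribosomal protein genes, 1 was higher and 2 lower (2 and 2 without embryo replicate 1, 5 and 8 under the replicate block). The median log2 difference was -0.06. None was higher without any 1 endosperm library, 4 were lower without endosperm replicate 1, and 1 was lower without any other library but embryo replicate 1. The acidic protein gene arpp2b was at 7.82, 14.5 and 17.2 CPM in embryo and at 30.8, 54.2 and 59.5 CPM in endosperm. Translation factors had 0 higher and 2 lower of 14 (0 and 1 without embryo replicate 1, 0 and 5 with the replicate block), and 0 were lower without embryo replicate 2, endosperm replicate 2 or endosperm replicate 3 and 1 without embryo replicate 3. Of 25 endoplasmic reticulum chaperones, 1 was higher and 4 lower (3 and 4 without embryo replicate 1, 4 and 8 with the replicate block; 0 and 1 without endosperm replicate 2 or endosperm replicate 3, 0 and 2 without embryo replicate 2 or embryo replicate 3). The disulfide isomerase gene PDIL1-2 was at 13.5, 18.0 and 27.3 CPM against 40.4, 53.8 and 55.3 CPM.

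Of the genes that took most reads, those described here were not called in the fit to all 6 libraries. The alpha-tubulin gene TUA2 took 1.28% to 2.09% of reads in each of the 6 libraries and had a log2 difference of 0.02 (adjusted p = 0.97). Another 4 genes of this rank carried no name, and none of them was called with all libraries. With the replicate number as a block GRMZM5G861390 was called lower in embryo (log2 difference -0.57, adjusted p = 0.002).

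Nitrogen genes had 5 higher (29.4%) and 2 lower (11.8%) of 17 tested, against 19.3% and 13.0% of genes with a name. Counts were 7 and 1 without embryo replicate 1, and 8 and 2 with the replicate block. Higher genes numbered 3 without embryo replicate 2, endosperm replicate 1 or endosperm replicate 2. Lower genes numbered 1 without embryo replicate 2, endosperm replicate 2 or endosperm replicate 3. The median log2 difference was 0.18. Glutamine synthetase gln2 was at 28.0, 145 and 135 CPM against 7.10, 6.09 and 7.28 CPM, lowest in embryo replicate 1. Asparagine synthetase asn3 was at 4.09, 5.77 and 2.40 CPM against 0.0878, 0 and 0 CPM. Aquaporin and ion transport genes had 4 higher and 2 lower of 20 (4 and 2 without embryo replicate 1; 0 lower without embryo replicate 2 or endosperm replicate 3 and 1 without embryo replicate 3, endosperm replicate 1 or endosperm replicate 2), and the aquaporin gene NIP1-1 was at 18.5, 47.6 and 58.0 CPM against 0.632, 3.52 and 1.42 CPM. Lipoxygenase and jasmonate genes had 3 higher and 2 lower of 15 (4 and 2 without embryo replicate 1; 1 lower without embryo replicate 2 or embryo replicate 3). Among these the allene oxide cyclase gene aoc1 was at 8.35, 26.6 and 25.8 CPM against 0.658, 1.95 and 2.12 CPM. Of 12 photosynthesis and plastid genes, 1 was higher (ME1, a call lost without endosperm replicate 2) and 1 lower (CYPPDKZM2), against 1 and 2 without embryo replicate 1.

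The central cell and the earlier endosperm give a reference for these levels, though the endosperm of 4 DAP is part of both series. Embryo libraries were above all 15 central cell and endosperm libraries for 1432 of the 3306 genes called higher (43.3%), against 6.42% of all tested genes, a share that the choice of these genes raises. CER1, lec1 and PIN1a were among the genes low at every one of those stages. Other embryo-side genes had been abundant earlier in the central cell lineage. HRGP averaged 268 CPM in the central cell, 181 at 1 DAP, 8.77 at 2 DAP and 0.978 at 3 DAP, and plt1 averaged 91.2, 62.7, 4.88 and 0.551 CPM. The sucrose synthase sus1 averaged 66.7, 108, 8.21 and 0.883 CPM at the same stages, and sh1 averaged 44.5, 31.3, 7.62 and 0.873 CPM. Embryo means at 4 DAP were 140 CPM for HRGP, 38.1 for plt1, 109 for sus1 and 120 for sh1, below the central cell for the first pair and above it for the second.

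Endosperm-side genes followed several courses. The meg2 model GRMZM2G088896 averaged at most 0.217 CPM at 0 to 3 DAP and 893 CPM at 4 DAP. Nkd1 averaged 8.56 CPM at 3 DAP and at most 0.500 CPM before it. Yucca3 averaged 9.57 CPM in the central cell, 889 at 1 DAP, 7549 at 2 DAP and 1950 at 3 DAP, and fie1 averaged 0.242, 18.2, 120 and 99.2 CPM. For adh1 the means were 462, 520, 175 and 625 CPM, all below the 1771 CPM of the 4 DAP endosperm.

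**Figure D4:**
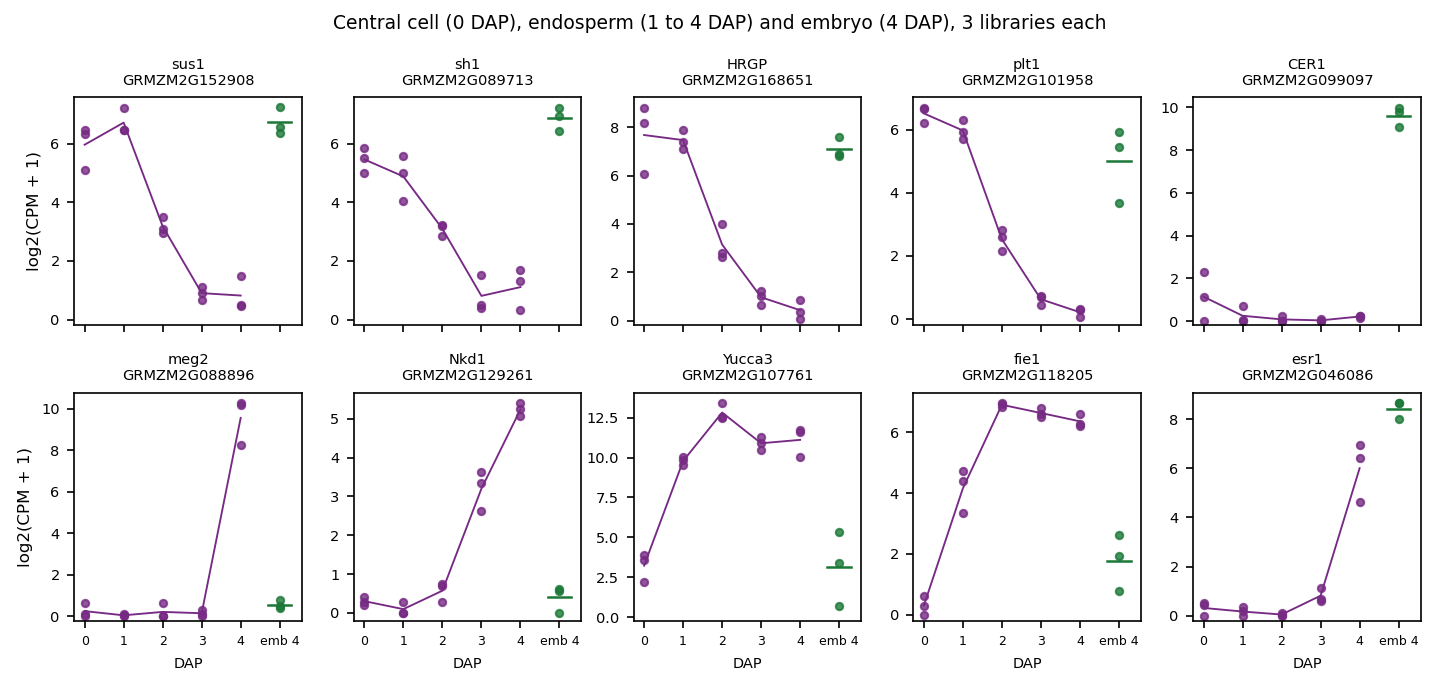
For 10 genes, points give log2(CPM + 1) of each library at 0 to 4 DAP in the central cell and endosperm (purple, line through the means of the log values) and in the 4 DAP embryo (green, bar at the mean). HRGP, plt1, sus1 and sh1 fall toward 0 along the endosperm series and are high in embryo, while CER1 averages 813 CPM in embryo and at most 1.70 CPM in the other groups.

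The filter left genes near its edge. The third-highest of the 6 values was 1.0008 CPM for the nearest gene tested and 0.9927 CPM for the nearest one not tested. Genes at 1 CPM in the 3 embryo libraries and in no endosperm library numbered 1213, of which 1128 were called higher, and 806 genes were at that level in the 3 endosperm libraries alone, of which 697 were called lower. Such genes passed the filter through the tissue where they were high, so these counts are given as a description.

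**Figure D5:**
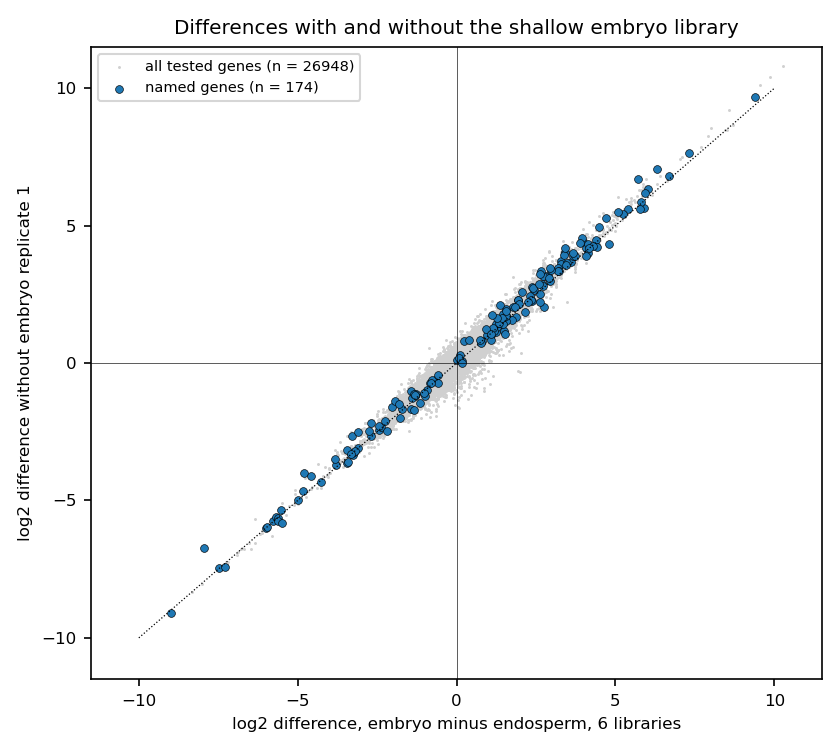
Each point is a tested gene, with its log2 difference from all 6 libraries on the x axis and from the 5 libraries left without embryo replicate 1 on the y axis; named genes are blue. Points follow the dotted line of equality, and 0 of the 5859 genes called both ways changed direction.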

How the data were processed

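The authors deposited 1 table of normalised signal values per gene and library, in CPM. Tools listed in the submitters' processing notes are bedtools 2.17.0, TopHat2 2.0.9, edgeR and Trimmomatic, and the build is B73 RefGen v3. What each tool did, whether strand was used and how reads of close copies were counted is not given in the sources used here. Column totals differed between libraries, from 850346 to 946658 in these 6, so the unit was recorded as signal, whereas CPM had been planned for, and the test was not changed. Whole reads were recovered for 100% of values (within 0.001 reads). edgeR 4.0.16 on those reads called 5822 genes.

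Names came from a RefSeq table of a later B73 assembly: 14444 of 38300 identifiers matched (37.7%), 1951 had a name and 455 matched several entries. No position or sequence was used.

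The 6 libraries were fitted with limma 3.58.1 (trended variance, R 4.3.3) on log2(CPM + 1), two-sided, with Benjamini-Hochberg adjustment over all 26948 genes and a threshold of 0.05. Differences are embryo minus endosperm, and the pseudocount understates those of low genes. Folds are ratios of mean CPM. CPM is not per length, so levels of different genes are not compared. DESeq2 1.42.0 was an alternative. The fits were also run on simulated counts with the same dispersion for all genes and no replicate effect. Those counts cannot give the error rate for these libraries. Nothing says whether ears were shared by the tissues. Deviations from the group means of same-numbered libraries correlated at 0.586, 0.335 and 0.369 across genes. Embryo replicate 2 with endosperm replicate 3 gave 0.277, and embryo replicate 3 with endosperm replicate 2 gave 0.278. A pairing by number is therefore not established between replicates 2 and 3. The reported fit had no block, and the block by replicate number was an alternative. P-values measure the spread between libraries, each from kernels of 1 ear. The parts of ear, RNA handling and amplification in that spread cannot be told apart.

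Named genes were the 15 of largest difference in each direction (called with and without embryo replicate 1, no overlap, at least 10 CPM), up to 4 called per list, cell type markers and the 5 highest in each tissue, of which 1 gene is not reported here. Other list members named were chosen after their values were seen. The 42 lists (949 genes) and members were chosen with earlier results of these data known. Other settings tried were the pseudocount, filter, scaling, all 18 libraries and each library left out.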

Additional observations from a re-analysis of the deposited data

How the results depend on the processing

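Of 174 named genes, 133 had a value in all 19 alternatives, and 103 of them kept their direction and their side of the threshold. The other 41 did not pass the 5 CPM filter, and 29 of them kept both in the other 18 alternatives. With at least 5 CPM in 3 libraries, 3710 genes were called (1832 higher, 1878 lower), from fewer genes tested. With the replicate block 9868 were called and 4940 were lower. The block added calls and ended none, and edgeR with the block called 8983. Leaving out 1 library gave 3660 to 7638 calls, 2047 to 4203 higher and 1613 to 3435 lower. The cause of these ranges was not tested. Rescaling, quantile normalization, other pseudocounts, no filter, all 18 libraries, edgeR and DESeq2 each stayed within 1.5 times the reported counts. Genes that changed direction were all uncalled. On the log2 scale, leaving out 1 library gave -0.203 to 0.168 for TUA2 (-0.20 without embryo replicate 3, -0.03 and -0.02 without endosperm replicates 1 and 2) and -0.26 to 0.784 for ocl1 (-0.26 without endosperm replicate 1, -0.13 without embryo replicate 3). It gave -0.101 to 0.299 for GRMZM2G360677 (-0.10 and -0.00265 in the same order) and -0.0614 to 0.248 for GRMZM2G324314 (-0.06 without endosperm replicate 1). With edgeR and embryo replicate 1 left out, an alternative added after seeing the data, GRMZM2G142109 was at -0.00328 and pbf1 at -0.0547. Leaving out replicate 1 of both tissues was also added then and gave 8715 calls. Depth limits low genes in embryo replicate 1 most, where 3 reads are 0.266 CPM.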
